A study of Mus musculus with 3 samples.

Results

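Peritubular myoid cells are the flat, smooth muscle-like cells that ring each seminiferous tubule. They were picked out of single-cell RNA counts of mouse testis by a rule on measured transcripts and then compared between testes lacking Scf in Sertoli cells and control testes. A myoid cell had at least 1 UMI (unique molecular identifier, the tag that counts 1 captured RNA molecule) of at least 4 of the 6 contractile genes Acta2, Myh11, Cnn1, Des, Tpm2 and Myl9, and of at least 1 of Fibin, Ptch1, Alpl and Ltbp2. It also had at most 1 UMI of Rgs5, a gene of vascular smooth muscle and pericytes, and 0 UMIs of Ptprc, which marks blood cells. Of 19396 cells with at least 200 genes and at most 10% mitochondrial UMIs, 3247 met the rule: 2307 of 7038 cKO cells, 696 of 6124 control cells and 244 of 6234 Tomato-negative cells. No myoid cell shared a barcode with a myoid cell of another library, and 9 to 15 barcodes were shared by each pair of libraries over all cells.

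The cKO group was Amh-cre; Scf fl/fl and the control group was Scf fl/fl without the Cre, both 6 weeks old. A library of Ddx4-creER; R26tdTomato mice given tamoxifen (8 weeks old) is set beside them, and its cells are called Tomato-negative because its fluorescent germ cells had been sorted away; it differed from both others in genotype, age and sort. The strain was C57BL/6. The study took cells from 3 mice per group and does not say how they were combined, and with 1 deposited library per condition there is no replicate. Scf encodes the ligand of the receptor Kit on germ cells. The Amh promoter drives Cre in Sertoli cells, so myoid cells are neighbours of the deleted cell and not its target. cKO and control suspensions were sorted to deplete haploid germ cells. The intervals given are 95% intervals for counting error only, since the mice within a library cannot be separated, and no test across samples was possible.

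Myoid cells contract to move sperm and fluid along the tubule, and together with Sertoli cells they lay down the basement membrane on which spermatogonial stem cells rest. Hedgehog signals from Sertoli cells, received through Ptch1, are needed for their formation. They are known to secrete Gdnf, a factor that maintains stem cells, as well as Csf1 and chemokines.

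The contractile genes that chose the cells were at high levels in all 3 libraries, as they had to be. Levels are given as CPM, counts per 1e6, the UMIs of a gene for each 1e6 UMIs of the summed myoid cells of a library, and a level is not corrected for gene length, since 3′ ends were counted. Acta2, the smooth muscle actin, stood at 9381 CPM in cKO, 8520 CPM in control and 7174 CPM in Tomato-negative myoid cells. Myh11, the smooth muscle myosin heavy chain, stood at 2874 CPM in cKO, 3635 CPM in control and 2313 CPM in Tomato-negative cells. The order of the libraries was not the same in myoid cells of at most 3500 detected genes. There Acta2 was at 10938 CPM in cKO, 10894 CPM in control and 13816 CPM in Tomato-negative cells. Myh11 was then at 3307 CPM in cKO, 4662.5 CPM in control and 4018 CPM in Tomato-negative cells. Fibin, a small secreted protein, had the widest gap, with 132 CPM in cKO, 389 CPM in control and 196 CPM in Tomato-negative cells. All 6 contractile genes were seen in 84.3% of cKO, 91.4% of control and 97.95% of Tomato-negative myoid cells, while Fibin, Ptch1, Alpl and Ltbp2 were all seen in 22.5% of cKO, 51.3% of control and 63.1% of Tomato-negative myoid cells. These values chose the members and are a description only.

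**Figure D1:**
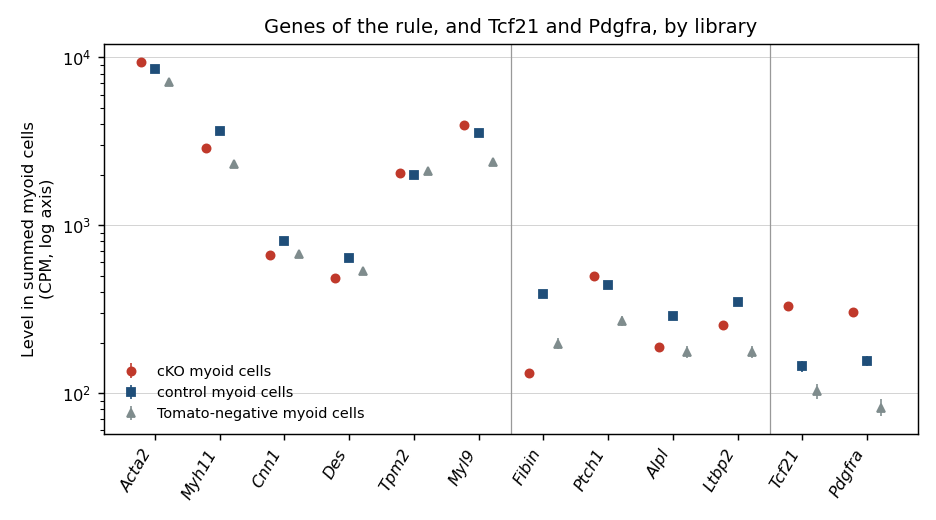
Levels (CPM, log axis) of the 6 contractile genes of the rule, the 4 other genes of the rule, and Tcf21 and Pdgfra, in summed cKO (circles), control (squares) and Tomato-negative (triangles) myoid cells; bars are exact Poisson 95% intervals. Fibin is at 132 CPM in cKO and 389 CPM in control cells, and Tcf21 at 328 CPM in cKO and 145 CPM in control cells.

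Cells most like these are set beside them as a description and not as a check of the label. Fibin helped to choose the myoid cells, and Rgs5 separates them from vascular cells by rule. Vascular cells (the same contractile genes, but at least 2 UMIs of Rgs5) numbered 112 in cKO, 22 in control and 211 in Tomato-negative libraries, and held 35.1 CPM of Fibin in cKO, 22.4 CPM in control and 8.96 CPM in Tomato-negative cells. Rgs5 was at 0.459 CPM in cKO, 0.440 CPM in control and 2.56 CPM in Tomato-negative myoid cells, under the rule. The summed level of 10 vascular markers was 268 CPM in cKO, 264 CPM in control and 359 CPM in Tomato-negative myoid cells, and 298 CPM in cKO, 306 CPM in control and 595 CPM in Tomato-negative myoid cells of at most 3500 detected genes. The stromal genes Tcf21, a transcription factor, and Pdgfra, a growth factor receptor, were seen in most myoid cells: 93.0% of cKO, 81.9% of control and 86.1% of Tomato-negative myoid cells had a UMI of at least 1 of them. By level, Tcf21 was at 328 CPM in cKO, 145 CPM in control and 102 CPM in Tomato-negative myoid cells, and at 581 CPM in cKO, 378 CPM in control and 187 CPM in Tomato-negative stromal cells. Stromal cells (at least 2 UMIs of Tcf21 plus Pdgfra and fewer than 4 contractile genes) numbered 1504 in cKO, 83 in control and 134 in Tomato-negative libraries.

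At the edge of the rule the cells were not alike between libraries. Just inside, 73 cKO, 10 control and 2 Tomato-negative myoid cells had 4 of the 6 contractile genes, with 2361 CPM of Acta2 in cKO and 2536 CPM in control cells but 4.05 CPM in the 2 Tomato-negative cells, whose median depth was 123542 UMIs. Just outside, 156 cKO, 6 control and 22 Tomato-negative cells had 3 of 6, with 162 CPM of Acta2 in cKO, 90.4 CPM in control and 22.6 CPM in Tomato-negative cells. A further 79 cKO, 12 control and 66 Tomato-negative cells had the contractile genes but none of Fibin, Ptch1, Alpl and Ltbp2. With 2 or more Rgs5 UMIs, 46 cKO, 5 control and 60 Tomato-negative cells fell outside.

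Myoid cells made up 32.8% of cKO cells (31.7 to 33.9), 11.4% of control cells (10.6 to 12.2) and 3.91% of Tomato-negative cells (3.45 to 4.43; exact Clopper-Pearson intervals). Cells with at least 2 UMIs of Ddx4, a germ cell helicase, were 26.2% of cKO, 53.2% of control and 53.3% of Tomato-negative cells. The share of myoid cells depends on what else the sort let through, and more myoid cells and fewer germ cells cannot be told apart in it.

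Myoid cells had a median of 5809 UMIs in cKO, 5372.5 UMIs in control and 8300 UMIs in Tomato-negative cells, and 15236024, 4550794 and 3509054 UMIs in all for cKO, control and Tomato-negative cells. A gene with 0 UMIs could thus be at up to 0.197 CPM in cKO, 0.659 CPM in control and 0.855 CPM in Tomato-negative myoid cells (3 counts). The 196 cKO, 67 control and 69 Tomato-negative myoid cells with over 3500 genes held 22.2% of cKO, 28.6% of control and 62.8% of Tomato-negative myoid UMIs. The summed level of 10 spermatid markers was 24.0 CPM in cKO, 990 CPM in control and 3728 CPM in Tomato-negative myoid cells, and 8.18 CPM in cKO, 343 CPM in control and 353 CPM in Tomato-negative myoid cells of at most 3500 genes. For 10 spermatocyte markers it was 522 CPM in cKO, 3569 CPM in control and 6991 CPM in Tomato-negative myoid cells, and 379 CPM in cKO, 973 CPM in control and 871 CPM in Tomato-negative myoid cells of at most 3500 genes. Most of this last cKO sum was Hspa2, at 319 CPM in cKO, 430 CPM in control and 321 CPM in Tomato-negative cells. Meig1, for instance, differed far more, at 5.99 CPM in cKO, 186 CPM in control and 227 CPM in Tomato-negative cells of at most 3500 genes. Over all myoid cells, every one of these 20 genes had a UMI in each library. With at most 3500 genes the spermatocyte marker Piwil1 had 0 UMIs in cKO and 40 in control cells. Values for myoid cells of at most 3500 genes are therefore given beside the lists and marker sums. The methods of the study set an upper limit of 3500 unique counts per cell, which is read here as detected genes.

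Before the comparison, the genes most particular to myoid cells fill in what the rule did not use, though the cells were chosen by their transcripts and these folds are no test. Among genes outside the rule with at least 50 UMIs in the myoid cells of each library, the 15 with the highest fold over all other cells, judged by the lowest of the 3 libraries, ran from Hamp2 down to Aatk. Hamp2, of the hepcidin family, led with 6.63 CPM in cKO, 17.6 CPM in control and 59.6 CPM in Tomato-negative myoid cells, between 350-fold and 586-fold over other cells of the same library. Several others are genes of striated muscle. Tnnt2, cardiac troponin T, had 1298 CPM in cKO, 917 CPM in control and 667 CPM in Tomato-negative myoid cells, and 18.9 CPM in cKO stromal cells. Casq2, the calcium store protein calsequestrin, had 343 CPM in cKO, 354 CPM in control and 206 CPM in Tomato-negative myoid cells. Popdc2, which acts in the conduction of the heart beat, and Musk, the kinase that organises the nerve-muscle junction, were also among them. Hhip, a hedgehog-binding target of hedgehog signals, had 124 CPM in cKO, 94.9 CPM in control and 68.7 CPM in Tomato-negative myoid cells. The others were Endou, Dner, Galr2 (a galanin receptor), Kcnip1 (a potassium channel partner), Fam89a, Tdgf1 (a Nodal co-receptor), Nkain4 and Sytl2. Vascular cells shared part of this set, with 316 CPM of Tnnt2 and 158 CPM of Casq2 in the cKO library.

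**Figure D2:**
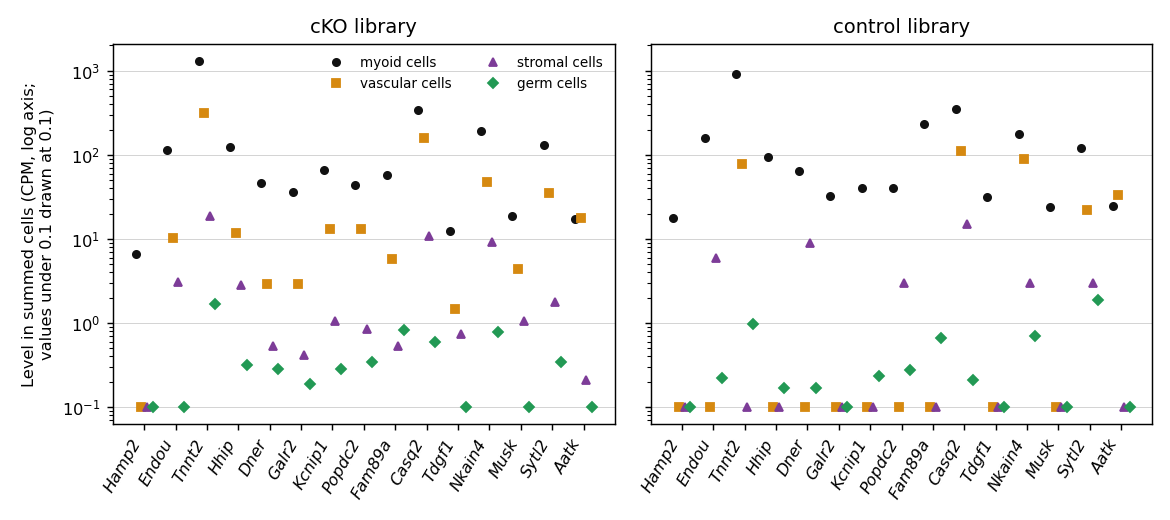
Levels (CPM, log axis) of the 15 genes most particular to myoid cells in myoid (circles), vascular (squares), stromal (triangles) and germ cells (diamonds) of the cKO library (left) and the control library (right); values under 0.1 CPM are drawn at 0.1. Tnnt2 reaches 1298 CPM in cKO and 917 CPM in control myoid cells, and germ cells stay under 3 CPM for each gene.

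The genes that varied most from cell to cell included immediate early, stress and contractile genes. Variation is the Fano factor, the variance of UMIs over their mean, after each myoid cell was thinned to 3000 UMIs, which left out 96 of 2307 cKO, 32 of 696 control and 0 of 244 Tomato-negative myoid cells. A gene whose UMIs scatter at random around 1 mean has a factor near 1, and the median over genes was 1.05 in cKO, 1.06 in control and 1.12 in Tomato-negative cells. The early response gene Fos had a factor of 6.08 in cKO, 4.54 in control and 7.58 in Tomato-negative cells. Mt1, a metallothionein that binds metals, had 5.74 in cKO, 3.50 in control and 17.3 in Tomato-negative cells. Acta2, a gene of the rule, had 5.38 in cKO, 5.35 in control and 8.45 in Tomato-negative cells. Tagln, the actin-binding protein transgelin, had 4.37 in cKO, 3.46 in control and 6.995 in Tomato-negative cells. Dcn, the matrix proteoglycan decorin, varied less in the control library, with a factor of 4.28 in cKO, 1.57 in control and 4.61 in Tomato-negative cells, and it was at 7226 CPM in cKO stromal cells. Jun, Btg2, Cebpd, S100a6, Mgp, Lyar, Malat1, Gm42418, AC160336.1 and mt-Rnr2 completed the 15.

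Across genes, cKO myoid cells were then compared with control myoid cells. A gene was tested with at least 100 UMIs over both sums, and it is called higher or lower past 1.5-fold. The 10 genes of the rule that reached this minimum were left out. Of 11556 genes, 1201 (10.4%) were higher and 2043 (17.7%) were lower in cKO cells, and the median log2 ratio over all of them was 0.01. With myoid cells of at most 3500 genes, 554 of 9914 genes (5.59%) were higher and 803 (8.10%) lower. Of the 2043 lower genes, 90.8% had a higher level in germ cells than in myoid cells of the cKO or control library, against 46.6% of the 1201 higher genes and 62.7% of all tested genes. The part of germ transcripts in the calls was not tested. These shares of all tested genes, 10.4% higher and 17.7% lower, or 5.59% and 8.10% with at most 3500 genes, are the background for each count of a gene list given after them, and several lists lie near it.

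**Figure D3:**
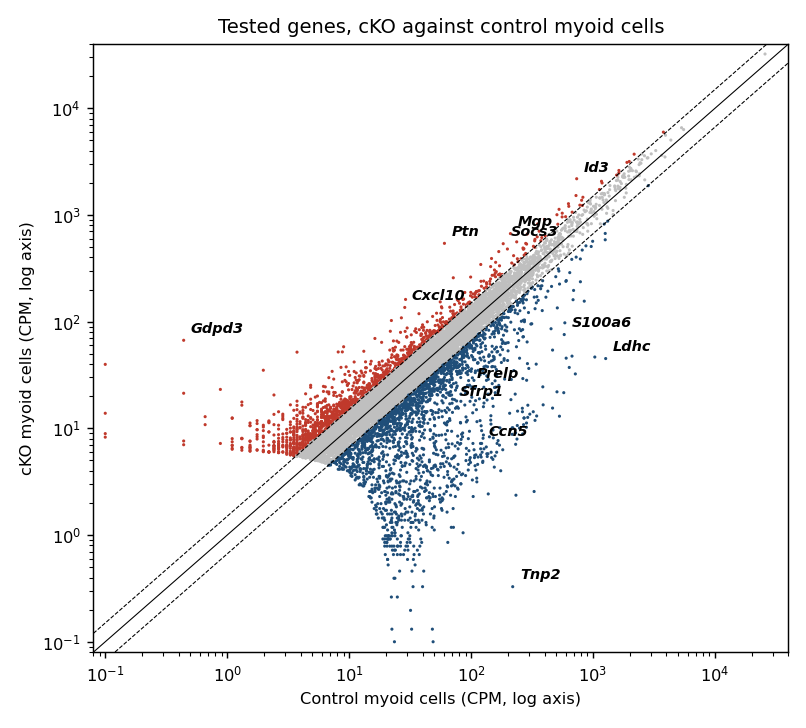
Levels of 11556 tested genes in cKO myoid cells (vertical axis, CPM, log) and control myoid cells (horizontal axis, CPM, log); each point is a gene, the solid line marks equal levels and dashed lines 1.5-fold, and levels under 0.1 are drawn at 0.1. 1201 genes (red) lie above and 2043 (blue) below the dashed lines, with the spermatid gene Tnp2 at 0.328 CPM in cKO and 219 CPM in control cells.

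The named genes are those furthest from equality by the near end of their interval, among genes with at least 200 UMIs. In the library where a gene was higher, its level was also at least 2-fold that of the other cells of that library. Ptn stood out on the high side. It encodes pleiotrophin, a heparin-binding growth factor, and lies on chromosome 6 at 36714929 to 36810220 (GRCm38). It was at 542 CPM in cKO, 60.4 CPM in control and 36.8 CPM in Tomato-negative myoid cells, a log2 ratio of 3.16 (2.99 to 3.34), and the library of cKO cells alone was high. After thinning, 75.4% of cKO, 16.0% of control and 13.1% of Tomato-negative myoid cells had a Ptn UMI (89.0%, 24.4% and 27.0% of cKO, control and Tomato-negative cells before thinning). In germ cells thinned to the same depth, which should lack it, the share was 0.712% in cKO, 0.0624% in control and 0.181% in Tomato-negative cells. In the same direction, cKO stromal cells had 252 CPM, against 68.5 CPM in control stromal cells.

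The 12 highest genes also included Id3, Spry2, Spry4, Socs3, Rrad and S1pr3. Id3, which blocks basic helix-loop-helix factors and is a known target of BMP signals, was at 2184 CPM in cKO, 734 CPM in control and 770 CPM in Tomato-negative myoid cells, a log2 ratio of 1.57 (1.52 to 1.62). Spry2, which dampens receptor tyrosine kinase signals, was at 69.6 CPM in cKO, 16.3 CPM in control and 17.1 CPM in Tomato-negative cells. Its relative Spry4 was at 41.9 CPM in cKO, 10.99 CPM in control and 11.4 CPM in Tomato-negative cells. For these 3 genes the control and Tomato-negative libraries lay close together over all myoid cells and the cKO library apart. With at most 3500 genes they lay less close, though cKO stayed the highest. Id3 was then at 2509 CPM in cKO, 950 CPM in control and 1504 CPM in Tomato-negative cells. Spry2 was at 77.7 CPM in cKO, 20.6 CPM in control and 28.3 CPM in Tomato-negative cells, and Spry4 at 48.6, 14.5 and 23.0 CPM in that order. Socs3, a brake on cytokine signals, was at 538 CPM in cKO, 183 CPM in control and 145 CPM in Tomato-negative cells. Rrad, a small GTPase of muscle, was at 102 CPM in cKO, 22.2 CPM in control and 18.8 CPM in Tomato-negative cells. The sphingosine 1-phosphate receptor gene S1pr3 was at 119 CPM in cKO, 37.4 CPM in control and 49.3 CPM in Tomato-negative cells. In stromal cells the cKO over control log2 ratio was 0.17 for Id3, 0.27 for Socs3 and 0.04 for S1pr3.

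Gdpd3, a phosphodiesterase gene, had the highest ratio of the named genes, and there the control library alone was low. It was at 66.9 CPM in cKO, 0.440 CPM (2 UMIs) in control and 40.8 CPM in Tomato-negative myoid cells. Vascular cells repeated it, with 169 CPM in cKO, 0 UMIs in control and 192 CPM in Tomato-negative cells. A further 3 of the 12 highest genes have only clone-based names and are counted but not described.

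On the low side the leading gene was Ccn5. It encodes a matricellular protein of the CCN family that is known to restrain growth of smooth muscle, and lies on chromosome 2 at 163820861 to 163833146 (GRCm38). It was at 7.22 CPM in cKO, 122 CPM in control and 140 CPM in Tomato-negative myoid cells, a log2 ratio of -4.07 (-4.39 to -3.78). A UMI of it was seen in 1.85% of cKO, 26.7% of control and 37.7% of Tomato-negative myoid cells at equal depth (3.25%, 38.6% and 63.5% of cKO, control and Tomato-negative cells before thinning), and in at most 0.187% of germ cells of any library at that depth. S100a6, a calcium-binding protein, was at 75.7 CPM in cKO, 580 CPM in control and 1131 CPM in Tomato-negative myoid cells, a log2 ratio of -2.94 (-3.04 to -2.84). It was also lower in cKO stromal cells, at 256 CPM, against 670 CPM in control stromal cells.

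The 12 lowest genes also included Col8a1, Prelp, Sfrp1, Fam89a and Ifi27l2a. Col8a1, a short-chain collagen of vessel walls, was at 6.56 CPM in cKO, 62.4 CPM in control and 68.7 CPM in Tomato-negative myoid cells. Prelp, a leucine-rich matrix protein that binds basement membrane, was at 25.4 CPM in cKO, 97.1 CPM in control and 97.2 CPM in Tomato-negative cells. Sfrp1, a secreted Wnt antagonist, was at 17.2 CPM in cKO, 69.9 CPM in control and 32.2 CPM in Tomato-negative cells. In each of these the cKO library was the lowest of the 3. Fam89a, particular to myoid cells, was at 58.2 CPM in cKO, 235 CPM in control and 176 CPM in Tomato-negative cells. Ifi27l2a, an interferon-induced gene, was instead high only in the control library, with 24.5 CPM in cKO, 101 CPM in control and 6.27 CPM in Tomato-negative cells. The other lower genes were Wwc1, Cyb561, Map3k7cl, BC051019 and Itpk1, with log2 ratios from -1.65 (BC051019) to -2.28 (Wwc1). The direction of each named gene was the same in myoid cells of at most 3500 genes, where Ptn had a log2 ratio of 3.03 and Ccn5 of -4.34.

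**Figure D4:**
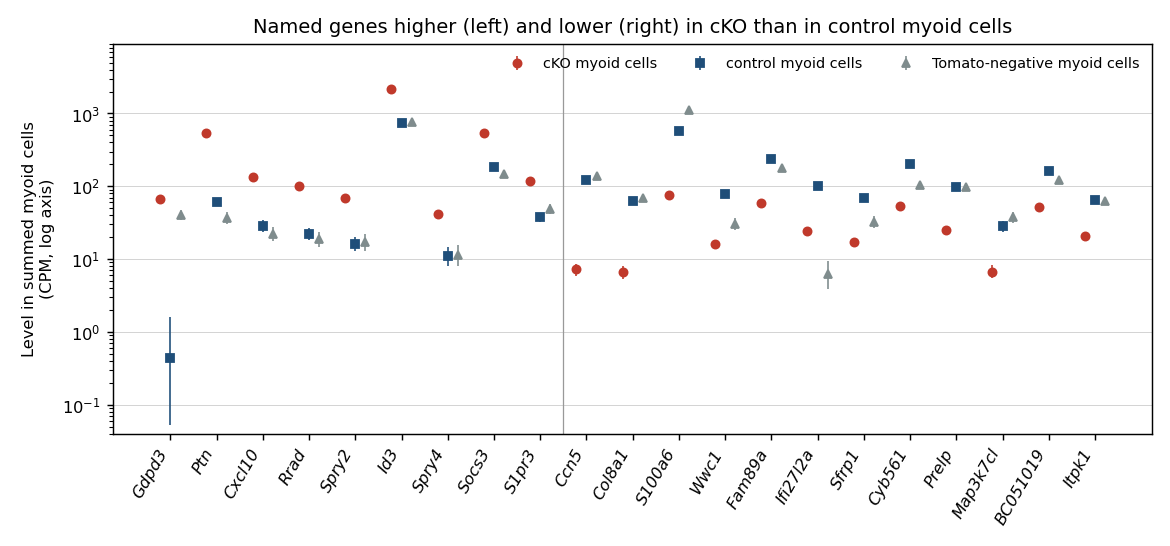
Levels (CPM, log axis) of 9 named genes that were higher and 12 that were lower in cKO (circles) than in control (squares) myoid cells, with Tomato-negative myoid cells (triangles) beside them; bars are exact Poisson 95% intervals. Over all myoid cells, control and Tomato-negative levels lie together for Id3 (734 and 770 CPM) and Prelp (97.1 and 97.2 CPM). With at most 3500 genes they lie less close, at 950 and 1504 CPM for Id3 and 126 and 179 CPM for Prelp (not drawn). For Gdpd3 the control library alone is low, at 0.440 CPM.

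The 19 gene lists, those of cell type markers aside, were chosen with earlier results of these data known. Among them, chemokines and inflammatory regulators were the list with the highest share of higher genes. Of its 12 tested genes, 10 were higher and 1 lower in cKO myoid cells, against 10.4% and 17.7% of all tested genes, and the median log2 ratio was 1.30 against 0.01. In myoid cells of at most 3500 genes the counts were again 10 and 1. Cxcl1, which attracts neutrophils, was at 258 CPM in cKO, 71.4 CPM in control and 51.6 CPM in Tomato-negative myoid cells. Cxcl10, an interferon-inducible chemokine that attracts T cells, was at 136 CPM in cKO, 28.6 CPM in control and 22.2 CPM in Tomato-negative cells. Ccl2, which attracts monocytes, was at 17.9 CPM in cKO, 6.37 CPM in control and 11.1 CPM in Tomato-negative cells. The list also holds adhesion molecules. Icam1 was at 391 CPM in cKO, 147 CPM in control and 92.3 CPM in Tomato-negative cells. Vcam1 was at 294 CPM in cKO, 161 CPM in control and 132 CPM in Tomato-negative cells. Nfkbia, the inhibitor that NF-κB itself induces, was at 480 CPM in cKO, 198 CPM in control and 261 CPM in Tomato-negative cells. With at most 3500 genes its Tomato-negative level was nearer to cKO, at 534 CPM in cKO, 251 CPM in control and 450 CPM in Tomato-negative cells. Icam1 was then at 444, 189 and 168 CPM in that order, with Tomato-negative nearer to control. Tnfaip3, another NF-κB feedback gene, had a log2 ratio of 1.32. The transcription factors Cebpb and Cebpd had log2 ratios of 1.18 and 1.10. With at most 3500 genes Cebpb was at 400 CPM in cKO, 201 CPM in control and 374 CPM in Tomato-negative cells. Cebpd was then at 1260 CPM in cKO, 696 CPM in control and 1053 CPM in Tomato-negative cells. Cxcl14 was the lower gene of the list, with 6.50 CPM in cKO, 13.6 CPM in control and 11.7 CPM in Tomato-negative cells. In stromal cells, Cxcl1 had a cKO over control log2 ratio of 2.12 and Icam1 of 1.15. The summed level of 10 immune cell markers was 26.5 CPM in cKO, 11.2 CPM in control and 6.55 CPM in Tomato-negative myoid cells (32.3 CPM in cKO, 12.3 CPM in control and 3.06 CPM in Tomato-negative cells with at most 3500 genes), and 2 of the 10 were at 0 in control and in Tomato-negative cells.

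The bases before the starts of these genes were searched for the NF-κB motif, since several are textbook NF-κB targets. Promoters of 11 of the list's 17 genes were in the RefSeq table (GRCm38.p6), and 4 held a match to the motif within 250 bases before the start, on either strand: Cxcl1, Cxcl10, Nfkbia and Tnfaip3. All promoters of the table held it in 3.75% of 27025 genes, the interferon and MHC list in 5 of 15, and the contractile genes of the rule in 2 of 5 (Des and Myl9), a share as high as in the chemokine list. Of the 7 without a match, Icam1, Socs3 and Cebpb were among the higher genes. For Cxcl1, Nfkbia and 1 of the 2 matches of Cxcl10, the match is drawn in capitals with up to 20 bases on each side, 5′ to 3′ on the strand of the gene, to show the shared letters in genes that were higher together; the other match of Cxcl10 and the 2 of Tnfaip3 are not drawn. Cxcl1 is at chr5:90891154-90891204 on the plus strand, and the others are on the minus strand, Cxcl10 at chr5:92348963-92349012 and Nfkbia at chr12:55492648-55492696.
Cxcl1: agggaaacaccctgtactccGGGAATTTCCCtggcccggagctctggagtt
Cxcl10: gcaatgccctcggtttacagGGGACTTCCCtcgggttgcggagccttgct
Nfkbia: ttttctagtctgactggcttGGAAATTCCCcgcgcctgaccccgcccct
A match is a description of the letters and not evidence of binding.

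Growth factors that the study names gave a mixed picture. Of 10 tested, 4 were higher and 1 lower in cKO myoid cells, and with at most 3500 genes 3 were higher and 1 lower. Igf1, insulin-like growth factor 1, was at 262 CPM in cKO, 99.1 CPM in control and 57.3 CPM in Tomato-negative myoid cells, a log2 ratio of 1.40 (1.26 to 1.54). Cxcl12, a chemokine that guides stem cells, was at 51.8 CPM in cKO, 3.74 CPM in control and 8.26 CPM in Tomato-negative cells, a log2 ratio of 3.75 (3.1 to 4.58). Inhba, an activin subunit, was at 9.71 CPM in cKO, 1.76 CPM in control and 4.56 CPM in Tomato-negative cells. With at most 3500 genes Inhba was at 10.0 CPM in cKO, 2.46 CPM in control and 10.7 CPM in Tomato-negative cells, so that the control library alone was low. Bmp4 was at 82.2 CPM in cKO, 49.7 CPM in control and 37.6 CPM in Tomato-negative cells, with a log2 ratio of 0.73 that was 0.58 with at most 3500 genes. Pdgfa was the lower one, at 32.8 CPM in cKO, 56.9 CPM in control and 63.6 CPM in Tomato-negative cells. Gdnf was at 21.8 CPM in cKO, 15.2 CPM in control and 6.84 CPM in Tomato-negative cells and did not pass 1.5-fold. Kitl, which encodes Scf itself and was deleted in Sertoli cells only, was at 28.7 CPM in cKO, 25.5 CPM in control and 13.7 CPM in Tomato-negative myoid cells, a log2 ratio of 0.17 (-0.13 to 0.48). Csf1, Fgf2 and Wnt5a had log2 ratios of 0.12, -0.37 and -0.29. Nrg1, with 21 UMIs in cKO and 0 in control cells, and Egf, with 5 UMIs in cKO and 10 in control cells, were too low to test.

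Stromal markers are given beside these values. Cxcl12 and Igf1 are abundant in stromal cells, Cxcl12 with 382 CPM in cKO and 292 CPM in control stromal cells, and Igf1 with 738 CPM in cKO and 964 CPM in control stromal cells, and stromal cells were 21.4% of cKO but 1.36% of control cells. Dcn, a stromal gene, was at 33.8 CPM in cKO germ cells, against 2.91 CPM in control germ cells, and at 1274 CPM in cKO, 628 CPM in control and 427 CPM in Tomato-negative myoid cells. The summed level of 9 stromal markers was 2791 CPM in cKO, 2094 CPM in control and 1316 CPM in Tomato-negative myoid cells, with Lum at 0 UMIs in control cells, and with at most 3500 genes it was 3018 CPM in cKO, 2677 CPM in control and 2519 CPM in Tomato-negative cells. The part of stromal RNA in the levels of Cxcl12 and Igf1 was not tested. Ptn was at 2.01 CPM in cKO germ cells and at 252 CPM in cKO stromal cells, below its 542 CPM in cKO myoid cells.

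Among other ligands, 4 of 9 tested genes were higher and 2 lower, and 4 and 3 of 9 with at most 3500 genes. Mdk, midkine, a relative of pleiotrophin, was at 137 CPM in cKO, 66.8 CPM in control and 29.6 CPM in Tomato-negative myoid cells. The Wnt ligand gene Wnt6 was at 88.5 CPM in cKO, 40.9 CPM in control and 21.1 CPM in Tomato-negative cells, and Wnt4 had a log2 ratio of 1.61. Gas6, ligand of the TAM receptors, was lower, at 387 CPM in cKO, 786 CPM in control and 431 CPM in Tomato-negative cells. With at most 3500 genes Gas6 was at 437 CPM in cKO, 1013 CPM in control and 818 CPM in Tomato-negative cells. The control library alone was thus high over all myoid cells, but not in those of at most 3500 genes. Vegfa had a log2 ratio of -0.91. Of the 28 symbols in the list, 2 were not found in the files and 17 had too few UMIs to test.

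In the list of TGF-β, activin and BMP signalling, 8 of 20 tested genes were higher and 0 lower in cKO cells, against 10.4% and 17.7% of all tested genes. With at most 3500 genes it was 7 higher and 2 lower of 18, against 5.59% and 8.10%. Tgfbi, a matrix protein induced by TGF-β, had the highest ratio of the list (log2 2.23), at 21.1 CPM in cKO, 4.39 CPM in control and 3.71 CPM in Tomato-negative cells. Of the Id genes, Id1 was at 454 CPM in cKO, 168 CPM in control and 193 CPM in Tomato-negative myoid cells, and Id2 at 662 CPM in cKO, 288 CPM in control and 249 CPM in Tomato-negative cells. With at most 3500 genes Id1 was at 520 CPM in cKO, 217 CPM in control and 380 CPM in Tomato-negative cells. Id2 was then at 752, 373 and 512 CPM in that order. Tgfbr3, the co-receptor betaglycan, had a log2 ratio of 0.80 and Fst, follistatin, which traps activin, of 1.33. The feedback inhibitor Smad7 was at 105 CPM in cKO, 104 CPM in control and 57.0 CPM in Tomato-negative cells. Fstl1 had a log2 ratio of -0.55, and of -0.71 with at most 3500 genes.

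Of 23 immediate early and heat shock genes, which dissociation of tissue also induces, 8 were higher and 2 lower, against 10.4% and 17.7% of all tested genes, with a median log2 ratio of 0.48. With at most 3500 genes, 4 were higher and 0 lower, against 5.59% and 8.10%, with a median of 0.26. Nr4a1, an orphan nuclear receptor, was at 1004 CPM in cKO, 505 CPM in control and 607 CPM in Tomato-negative myoid cells. Junb was at 3710 CPM in cKO, 2172 CPM in control and 1637 CPM in Tomato-negative cells. With at most 3500 genes the Tomato-negative level of Nr4a1 was near that of cKO, at 1147 CPM in cKO, 653 CPM in control and 1135 CPM in Tomato-negative cells. That of Junb was nearer to control, at 4205, 2771 and 3034 CPM in that order. Fos was at 6566 CPM in cKO, 5315 CPM in control and 3161 CPM in Tomato-negative cells and did not pass 1.5-fold. The 2 lower genes were Hsp90aa1 and Dnajb1, with log2 ratios of -0.81 and -0.83 that became 0.02 and -0.06 with at most 3500 genes. The part of dissociation in these levels was not tested.

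Over all myoid cells the contractile genes outside the rule were close to even, with 1 of 24 higher and 3 lower, against 10.4% and 17.7% of all tested genes. Their median log2 ratio was -0.13. With at most 3500 genes 0 of 24 were higher and 4 lower, against 5.59% and 8.10%. The median was then -0.27, beside -0.06 over all tested genes. Tagln was at 1880 CPM in cKO, 2834 CPM in control and 3230 CPM in Tomato-negative myoid cells. Actg2, the other smooth muscle actin, was at 212 CPM in cKO, 318 CPM in control and 327 CPM in Tomato-negative cells. Synm, the intermediate filament protein synemin, was at 203 CPM in cKO, 372 CPM in control and 284 CPM in Tomato-negative cells. For these 3 genes the cKO library was the lowest of the 3. Mylk, the kinase that starts contraction, was at 2255 CPM in cKO and 2180 CPM in control cells, and the coactivator Myocd at 63.9 CPM in cKO and 72.7 CPM in control cells. Srf, the transcription factor that drives contractile genes, was the higher one, with a log2 ratio of 0.62 (0.43 with at most 3500 genes).

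Among receptors and channels that set contraction, 3 of 12 were higher and 2 lower, and 2 and 1 of 12 with at most 3500 genes. Ednra, the endothelin receptor of myoid cells, was at 132 CPM in cKO, 108 CPM in control and 116 CPM in Tomato-negative cells. Avpr1a, a vasopressin receptor, was at 10.2 CPM in cKO, 3.96 CPM in control and 1.99 CPM in Tomato-negative cells. Kcnma1, the large calcium-activated potassium channel, was lower, at 12.5 CPM in cKO, 40.2 CPM in control and 21.1 CPM in Tomato-negative cells. Oxtr, the oxytocin receptor, had 7 UMIs in cKO and 0 in control cells.

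Of the hedgehog pathway genes, 1 of 10 was higher and 1 lower, and 0 and 1 of 9 with at most 3500 genes. Gli1, its transcription factor and target, was at 61.0 CPM in cKO, 59.6 CPM in control and 31.1 CPM in Tomato-negative myoid cells, a log2 ratio of 0.03 (-0.16 to 0.24). Smo, the signalling subunit, had a log2 ratio of 0.04 (-0.15 to 0.24). Gli2 had -0.63 and Gli3 0.66, and Gli3 had 0.21 with at most 3500 genes. Among nuclear receptors 1 of 7 tested was higher, the estrogen receptor gene Esr1, with a log2 ratio of 0.74 (0.37 with at most 3500 genes, where 0 of 7 were higher), and 0 were lower.

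In the retinoic acid pathway 0 of 12 genes were higher and 1 lower, and 0 and 1 of 9 with at most 3500 genes. Cyp26b1, the enzyme that degrades retinoic acid around the tubule, was at 2314 CPM in cKO, 1958 CPM in control and 975 CPM in Tomato-negative myoid cells. Aldh1a1, a synthesising enzyme, was at 389 CPM in cKO, 338 CPM in control and 257 CPM in Tomato-negative cells. The lower gene was Aldh1a2, at 4.92 CPM in cKO, 33.2 CPM in control and 39.9 CPM in Tomato-negative cells, a log2 ratio of -2.75 (-2.06 with at most 3500 genes). Spermatocytes and spermatids are known to express Aldh1a2. Their markers were higher in the control and Tomato-negative libraries, over all myoid cells and with at most 3500 genes. With at most 3500 genes Aldh1a2 was at 1.77 CPM in cKO, 7.38 CPM in control and 0.766 CPM (1 UMI) in Tomato-negative cells. Its Tomato-negative level was then the lowest. The part of germ RNA in the Aldh1a2 level was not tested.

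Fibrillar and interstitial matrix had the lowest median of the 19 lists, with the deep cells and without them. Of 27 tested genes, 7 were lower and 2 higher, with a median log2 ratio of -0.39. With at most 3500 genes 12 of 25 were lower and 2 higher, against 8.10% and 5.59% of all tested genes, with a median of -0.54 beside -0.06 over all tested genes. Elastin, Eln, was at 170 CPM in cKO, 329 CPM in control and 107 CPM in Tomato-negative myoid cells. Lox, which crosslinks elastin and collagen, was at 21.2 CPM in cKO, 41.3 CPM in control and 20.2 CPM in Tomato-negative cells. Fbln1, fibulin 1, was at 25.5 CPM in cKO, 49.4 CPM in control and 40.8 CPM in Tomato-negative cells. Col1a1 was at 441 CPM in cKO, 632 CPM in control and 211 CPM in Tomato-negative cells, a log2 ratio of -0.52 that was -0.73 with at most 3500 genes. For Eln, Lox and Col1a1 the control library was the highest of the 3, also with at most 3500 genes. Over all myoid cells the Tomato-negative level of these genes lay below the cKO level. With at most 3500 genes that held for Col1a1 only, at 494 CPM in cKO and 391 CPM in Tomato-negative cells. Eln was then at 197 CPM in cKO and 202 CPM in Tomato-negative cells, and Lox at 24.2 CPM in cKO and 36.7 CPM in Tomato-negative cells. The higher genes were Dcn and Efemp1, with log2 ratios of 1.02 and 3.03.

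The basement membrane list held 5 higher and 2 lower of 22 genes, and 3 higher and 5 lower of 21 with at most 3500 genes. Col4a4, a collagen IV chain, was at 3623 CPM in cKO, 3658 CPM in control and 1266 CPM in Tomato-negative myoid cells. Its partner Col4a3 was at 1008 CPM in cKO, 1460 CPM in control and 423 CPM in Tomato-negative cells, a log2 ratio of -0.53 that was -0.69 with at most 3500 genes. The laminin chain Lamb2 was at 436 CPM in cKO, 280 CPM in control and 149 CPM in Tomato-negative cells, a log2 ratio of 0.64 that was 0.45 with at most 3500 genes. Col15a1 was at 52.0 CPM in cKO, 8.13 CPM in control and 4.27 CPM in Tomato-negative cells. Of the matrix proteases and inhibitors, 6 of 15 were higher and 2 lower, and 4 and 3 of 14 with at most 3500 genes. The aggrecanase Adamts5 was at 822 CPM in cKO, 351 CPM in control and 143 CPM in Tomato-negative cells, and the gelatinase Mmp2 at 11.8 CPM in cKO, 1.76 CPM in control and 1.42 CPM in Tomato-negative cells. The inhibitor Timp3 was lower, at 821 CPM in cKO, 1234 CPM in control and 1009 CPM in Tomato-negative cells. Integrins and adhesion genes had 1 of 18 higher and 3 lower, and 0 and 4 of 17 with at most 3500 genes. Itga8 was at 119 CPM in cKO, 184 CPM in control and 107 CPM in Tomato-negative cells.

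Of the interferon and MHC class I genes, 2 of 15 were higher and 4 lower, against 10.4% and 17.7% of all tested genes, with a median log2 ratio of -0.24. With at most 3500 genes 1 was higher and 7 lower, against 5.59% and 8.10%, with a median of -0.54. Ifit3 was at 9.98 CPM in cKO, 26.1 CPM in control and 3.71 CPM in Tomato-negative myoid cells. Irf1, which NF-κB also induces, was at 240 CPM in cKO, 127 CPM in control and 121 CPM in Tomato-negative cells. The same shares of all tested genes are the background for the other lists. Cytosolic ribosomal proteins had 10 of 83 higher and 2 lower with a median of 0.32, and 5 and 1 of 82 with a median of 0.18 with at most 3500 genes. Nuclear respiratory chain subunits had 0 of 76 higher and 7 lower, and 0 and 2 of 75 with at most 3500 genes. Glycolysis and hypoxia genes had 2 of 13 higher and 3 lower, and 0 and 3 of 11 with at most 3500 genes. Cell cycle genes had 2 of 14 higher and 5 lower, but only 7 could be tested in myoid cells of at most 3500 genes, with 1 higher and 2 lower. Birc5, for instance, was at 14.9 CPM in cKO, 66.1 CPM in control and 109 CPM in Tomato-negative cells, in the order of the spermatocyte markers.

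**Figure D5:**
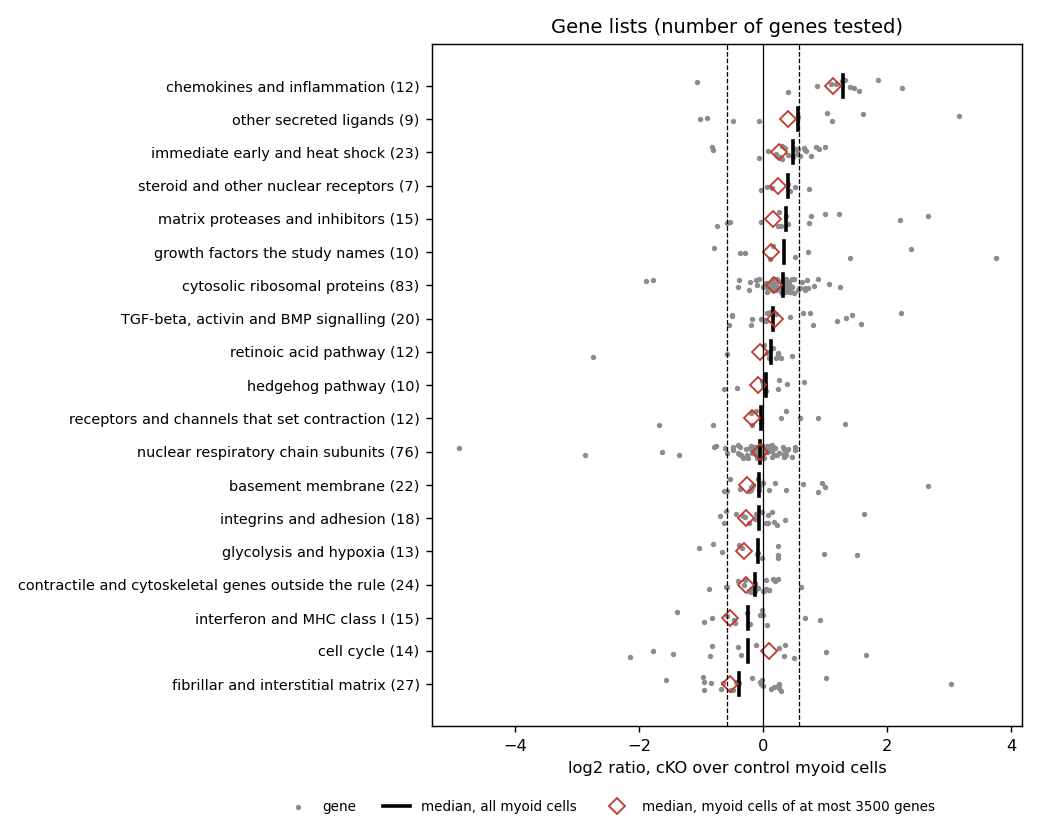
log2 ratios, cKO over control myoid cells, of the tested genes (grey points) of 19 gene lists, with the median over all myoid cells (black bar) and over myoid cells of at most 3500 genes (red diamond); dashed lines mark 1.5-fold. Chemokines and inflammation lie furthest to the right, with medians of 1.30 and 1.13, and fibrillar matrix furthest to the left by the black bar, with medians of -0.39 and -0.54.

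Markers of other cell types were also present. Most of the Sertoli marker level in cells of at most 3500 genes was Aard, at 303 CPM in cKO, 284 CPM in control and 251 CPM in Tomato-negative cells. The summed level of 12 Sertoli cell markers was 361 CPM in cKO, 256 CPM in control and 932 CPM in Tomato-negative myoid cells, and 345 CPM in cKO, 320 CPM in control and 474 CPM in Tomato-negative cells of at most 3500 genes. For 7 Leydig cell markers it was 537 CPM in cKO, 272 CPM in control and 208 CPM in Tomato-negative cells, most of it Fabp3, and 521 CPM in cKO, 344 CPM in control and 374 CPM in Tomato-negative cells of at most 3500 genes. Cyp17a1 was at 39.8 CPM (606 UMIs) in cKO and at 0 UMIs in control and Tomato-negative cells, but at 0.337 CPM (4 UMIs) in cKO cells of at most 3500 genes. For 9 endothelial markers it was 22.8 CPM in cKO, 7.03 CPM in control and 35.3 CPM in Tomato-negative cells, and 16.7 CPM in cKO, 3.38 CPM in control and 15.3 CPM in Tomato-negative cells of at most 3500 genes. For 10 markers of spermatogonia it was 517 CPM in cKO, 388 CPM in control and 560 CPM in Tomato-negative cells. With at most 3500 genes it was 89.97 CPM in cKO, 118 CPM in control and 70.4 CPM in Tomato-negative cells, so that the cKO sum was then below the control sum.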

How the data were processed

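Testis cells of 3 libraries (10x Chromium 3′) were used. The submitters' processing notes name Cell Ranger 2.1.1, Seurat 3.1 and the GRCm38 build. The deposited values are raw UMI counts per gene and cell, which summed to 68602272 (cKO), 90453018 (control) and 195380762 (Tomato-negative, 7626 cells). The Tomato-negative cells were taken from a merged table by their barcode suffix, and its other 6413 cell columns were not used. Members and gene lists were chosen with earlier results of these data known. Raw UMIs of myoid cells were summed per library. CPM have exact Poisson intervals, shares Clopper-Pearson intervals, and log2 ratios (0.5 added to each count) exact conditional binomial intervals, all at 95%. These cover counting error only. With 1 library per condition no test was run. The named genes were the 12 highest and 12 lowest by the interval end nearest to 0 among genes with at least 200 UMIs over cKO and control, outside the rule and the marker lists, and at least 2-fold over other cells in the library where they were higher; further named were all listed genes described, the 15 most particular and the 15 most variable genes. Gene symbols of all 461 genes shown matched GENCODE vM21. Doublets, called by Scrublet in scanpy 1.11.5 (expected rate 0.06; 198 cKO, 72 control and 31 Tomato-negative myoid cells), stayed in the main sums and were taken out in an alternative. Steps were tested on simulated data. Alternatives changed the limits on cells, the rule, depth, scaling, weight of cells and the minimum of UMIs.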

Additional observations from a re-analysis of the deposited data

Results flagged for a closer look

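Of 201 genes with enough UMIs in both kinds of cell, 4 passed 1.5-fold in opposite directions in myoid and in stromal cells, cKO over control. The difference between the 2 kinds of cell was not tested, and the control stromal cells numbered only 83. Gas6 had a log2 ratio of -1.02 in myoid and 1.67 in stromal cells (2825 UMIs in cKO and 31 in control stromal cells). Mgp, matrix Gla protein, an inhibitor of calcification, had 1.67 in myoid and -0.80 in stromal cells, with 669 CPM in cKO, 210 CPM in control and 222 CPM in Tomato-negative myoid cells. Adamts5 had 1.23 in myoid and -0.73 in stromal cells. Hspa1a, a heat shock protein, had 0.65 in myoid and -0.69 in stromal cells, but 0.45 in myoid cells of at most 3500 genes, which is under 1.5-fold.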

How the results depend on the processing

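No paired analysis was possible because there is 1 library per condition and no replicate to match or leave out. The count of genes past 1.5-fold differed by over 1.5 times in several alternatives, which also tested other numbers of genes. Against 1201 higher and 2043 lower of 11556 genes, it was 554 and 803 of 9914 with at most 3500 genes per cell, 609 and 888 of 10220 without called doublets, and 552 and 878 of 9841 without myoid cells with a Ddx4, Cyp17a1, Cdh5 or Sox9 UMI. It was 473 and 812 of 8565 with levels thinned to 3000 UMIs, 397 and 672 of 8160 with cells thinned before the rule, and 774 higher with each cell weighted equally. With at least 20 UMIs in place of 100 it was 2385 and 3618 of 16015, and with at least 1 UMI 4581 and 8236 of 27664. Of 2 alternatives chosen after seeing the data, leaving out genes that are higher in germ cells gave 641 and 188 of 4312, and leaving out myoid cells with a Tcf21 or Pdgfra UMI (161 cKO and 126 control cells stayed) gave 641 and 631 of 3719.

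The share of myoid cells was 46.4% in cKO, 17.3% in control and 8.11% in Tomato-negative cells with at most 3500 genes, 31.4% in cKO and 10.6% in control cells without doublets, and 28.2% in cKO, 9.39% in control and 2.84% in Tomato-negative cells without those with a UMI of another type. In cKO cells it was 35.0% with 3 of 6 contractile genes and 28.9% with 5 of 6 and 2 of the other 4. The cKO share was the highest in each of these.

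List medians (log2) stayed within the interval of the main median in 250 of 283 values. That interval is taken over the genes of a list, so it is wide for a short list and does not measure counting error. Some alternatives also changed few cells, as with no Rgs5 UMI, where 2300 cKO and 694 control myoid cells stayed. The count is therefore a description and no measure of robustness. In the order at most 3500 genes, no doublets, the basement membrane median was -0.26 and -0.26, the contractile -0.27 and -0.27, fibrillar matrix -0.54 and -0.58, immediate early genes 0.26 and 0.20, ribosomal proteins 0.18 and 0.18 and retinoic acid -0.0521 and 0.00106. Without cells with a UMI of another type, basement membrane was -0.22, immediate early genes 0.22, ribosomal proteins 0.18 and retinoic acid -0.024. With levels thinned, basement membrane was -0.24, fibrillar matrix -0.53, ribosomal proteins 0.22 and retinoic acid -0.00294. With cells thinned before the rule, they were -0.24, -0.54, 0.19 and -0.0592 in the same order. With each cell weighted equally, the contractile median was -0.24, basement membrane -0.20, ribosomal proteins 0.21 and retinoic acid -0.0349, and with 3 of 6 contractile genes the contractile median was -0.24. Respiratory chain subunits were at 0.19 without genes higher in germ cells. Without myoid cells with a Tcf21 or Pdgfra UMI they were at 0.22, basement membrane at -0.20 and ribosomal proteins at 0.41. The causes were not tested.

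Each of the 24 named genes stayed past 1.5-fold in the same direction in each alternative, except that Map3k7cl had a log2 ratio of 0.22 without myoid cells with a Tcf21 or Pdgfra UMI. The named genes were picked as extremes of these same cells, so this is a description and no test. Depth limits the low genes: 3 counts are 0.659 CPM in control myoid cells.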
